A study of Homo sapiens with 27 samples.

Results

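miR-223 and miR-142 are microRNAs (miRNAs) of blood cells, and their mature probes were followed here in OCI-AML3, a human acute myeloid leukaemia cell line. The members were chosen by name: of 774 human miRNA probes in the deposited table, 3 were mature probes named hsa-miR-223, hsa-miR-142-3p or hsa-miR-142-5p (hsa stands for human and is left off below), and no other probe carried either miRNA's name. POL6326, an antagonist of the chemokine receptor CXCR4, was given at 250 nM, and SDF-1α, the ligand that activates CXCR4, at 100 ng/mL. Cells of each agent were taken at 1, 2, 4 and 8 h and untreated control cells at 0 h, which gave 9 groups of 3 arrays and 27 arrays in all. The cells were grown in RPMI medium with fetal bovine serum. Nothing in the labels tells whether arrays of 1 group stem from separate cultures, and the p-values thus measure the spread between arrays, which may be technical. A difference from control mixes agent and time in culture, which cannot be told apart, whereas the agents were set against each other at matched times.

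miRNAs guide the silencing complex to messenger RNAs that pair with their seed, the short stretch near the 5′ end. miR-223 is known as a miRNA of the granulocyte and monocyte lineage, with its gene switched on by the myeloid factor C/EBPα, and it limits the expansion and activation of neutrophils in mice. miR-142 is known as a miRNA of blood cells in general. Its 1 hairpin precursor yields both miR-142-5p and miR-142-3p. CXCR4 and its ligand hold leukaemia cells in the bone marrow.

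The mature sequences show that the 3 members are read by different seeds, set here in capitals (bases 2 to 8). They are from RefSeq (GRCh38.p14), where the older name miR-223 stands for the arm now called miR-223-3p.
miR-223: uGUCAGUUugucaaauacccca
miR-142-3p: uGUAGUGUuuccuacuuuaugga
miR-142-5p: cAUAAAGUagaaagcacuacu
Among 2370 human mature miRNA names in that table, 0 others carried the miR-223 or the miR-142-3p seed, and 1 other, miR-5590-3p, carried the miR-142-5p seed. The miR-223 gene, MIR223, is on the plus strand at chrX:66018870-66018979 and yields a hairpin of 110 bases. The miR-142 gene, MIR142, is on the minus strand at chr17:58331232-58331318. Its hairpin of 87 bases is shown because the signals of its arms differed in kind, and the capitals mark miR-142-5p (bases 16 to 36) and then miR-142-3p (bases 52 to 74).
MIR142 hairpin: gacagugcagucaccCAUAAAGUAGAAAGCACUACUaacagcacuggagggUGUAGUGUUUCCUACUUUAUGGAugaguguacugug

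The deposited values are log2 signals. On every array many dim probes shared 1 low value, the floor, which lay between 4.27 and 4.43 over the arrays. It was the most frequent value, and values under it occurred and were counted as at the floor. The next value up from the floor is called the detection limit, and the number of miRNA probes above the floor the detected count. The detected count ranged from 210 to 593 per array, and the 5 highest counts (482 to 593) were on control array 1, SDF-1α 8 h array 1 and the 3 POL6326 4 h arrays. On the other 22 arrays it was 210 to 422. Differences between the 9 groups passed in 24.5% of probes (moderated F-test, adjusted p under 0.05), with an adjusted p of 0.00328 for miR-223, 0.348 for miR-142-5p. The number of arrays limits the precision.

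miR-223 was among the 6 brightest of 774 probes on all 27 arrays. It ranked 1 on 4 arrays, 2 on 16, 3 on 3, 4 on 1, 5 on 1 and 6 on 2. Brightness depends on the probe as well as on the RNA, so this rank is not an order of abundance. All 1689 values above a log2 signal of 10 were found on 2 or more arrays, with 145 distinct values among them, so a bright probe takes its value from a set that the arrays share. miR-223 took 7 distinct values. Its topmost step, from the highest value to the next, was 0.345 on the log2 scale, or 1.27-fold. The steps under it were, in order, 0.471, 0.259, 0.197, 0.176 and 0.139. A change smaller than the step at its place on this scale cannot be seen in these values.

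**Figure D1:**
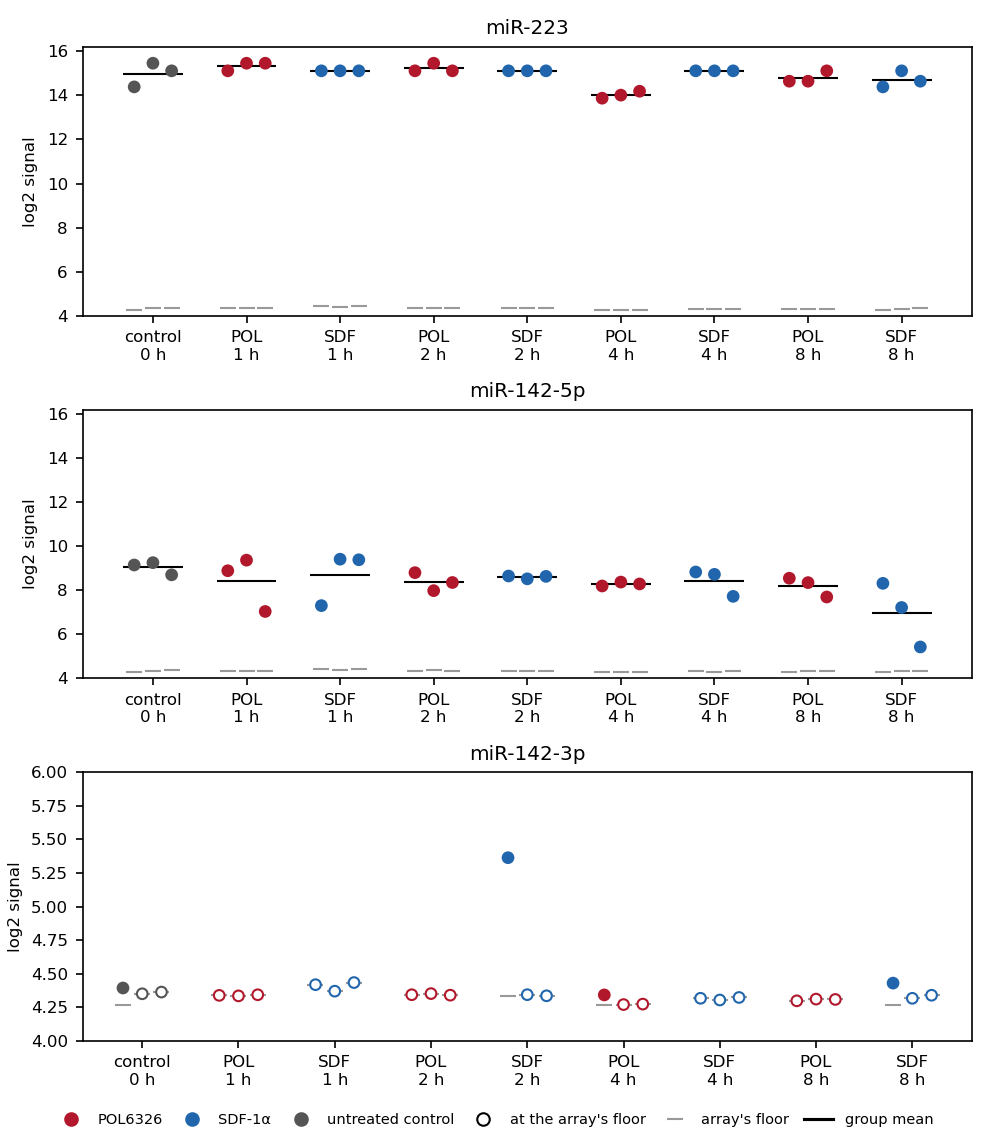
Log2 signal (vertical axes) of miR-223, miR-142-5p and miR-142-3p on each of 27 arrays, by group. Points are arrays (open where at the floor), grey dashes are the arrays' floors and black lines are means of 3 arrays. miR-223 lies between 13.88 and 15.46, miR-142-5p between 5.42 and 9.41, and miR-142-3p is above the floor on 4 arrays.

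At 4 h miR-223 was 2.13-fold lower with POL6326 than with SDF-1α. The POL6326 4 h arrays read 13.88, 14.01 and 14.19 on the log2 scale, against 15.12 on each of the SDF-1α 4 h arrays. The groups did not overlap, and miR-223 stood at ranks 6, 6 and 5 with POL6326 and at rank 2 on each SDF-1α array of that time. The fitted log2 difference was -1.09 (SE 0.21, 95% interval -1.53 to -0.65, adjusted p = 0.00403 by limma's moderated test over 774 probes). Every SE of miR-223 rests on 1 spread pooled over the 9 groups. Its SD was 0 with SDF-1α at 1, 2 and 4 h, where the arrays tied at 1 shared value, and 0.55 in control. The SEs, intervals and p-values may thus understate the spread between arrays. At 4 h 9.82% of all probes were called in this comparison, and those called lower were 6.07% of all probes. Of 292 probes above the floor on all 6 arrays, 40.8% were lower with no overlap between the groups, so the lack of overlap alone did not set miR-223 apart. With 3 arrays a group the smallest exact permutation p is 0.1, which this difference reached (two-sided).

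Against the untreated control miR-223 was 1.95-fold lower with POL6326 at 4 h. The control arrays read 14.39, 15.46 and 15.12, so the spread within control alone covered 3 steps of the shared values, and none of them was as low as a POL6326 4 h array. The log2 difference was -0.96 (SE 0.21, adjusted p = 0.0132 by limma), in a comparison where 2.71% of probes were called lower. This call ended without control array 2 (-0.73, adjusted p = 0.0787), control array 3 (-0.90, adjusted p = 0.0529) or POL6326 4 h array 1 (-0.89, adjusted p = 0.0544), and when only these 2 groups were fitted (adjusted p = 0.236). The call against SDF-1α held without any 1 array (adjusted p from 0.000456 to 0.0213).

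The arrays on which miR-223 stood lower in rank were those with a high detected count. On the 5 arrays with counts of 482 to 593 miR-223 ranked 3 to 6, and on the other 22 it ranked 1 to 3. Control array 1, with 560, had rank 4. With the detected count as a covariate, the 4 h difference was -0.66 against SDF-1α (adjusted p = 0.0866) and -0.54 against control (adjusted p = 0.148), and both calls ended. As each group keeps its own mean, the covariate's slope comes from counts that differ within groups. They differed most in control (560, 304 and 257) and with SDF-1α at 8 h (489, 366 and 317). In both, the array of highest count had the lowest miR-223 value (14.39). The adjustment at 4 h thus rests largely on these 2 groups. The counts of the 4 h groups did not overlap (482 to 593 with POL6326, against 362 to 381 with SDF-1α), so agent and detected count cannot be told apart at that time. Without the 5 arrays of high count and the SDF-1α 4 h arrays, the mean difference over the other 3 times was 0.089.

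**Figure D2:**
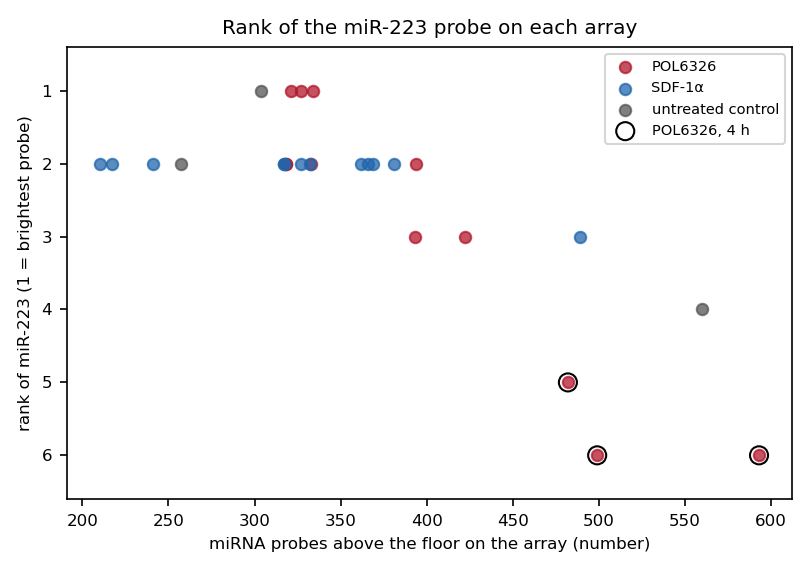
Rank of the miR-223 probe among 774 miRNA probes (vertical axis, 1 at the top) against the detected count (probes above the array's floor, horizontal axis), 1 point per array. The 3 ringed POL6326 4 h arrays have detected counts of 482 to 593 and ranks 5 to 6, and the untreated array with 560 has rank 4.

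A total of 5 probes were brighter than miR-223 on 1 or more arrays, and as this chose them, their values at 4 h are given as a description with no test. miR-553 was brighter on 23 arrays and in every group. miR-92a, which shares a host transcript with miR-17, was brighter on all 3 POL6326 4 h arrays and on 3 arrays taken at 8 h. miR-494 was brighter on all 3 POL6326 4 h arrays and on 1 control array, and it read 15.46, 14.39 and 15.46 on the POL6326 4 h arrays, against 13.13, 13.13 and 13.39 on the SDF-1α 4 h arrays. The miR-301a precursor probe was brighter on the same number of arrays in each of these groups, and it read 15.12, 15.12 and 14.39 with POL6326 at 4 h, against 13.52, 13.52 and 13.05 with SDF-1α at 4 h. miR-202* was brighter on 2 of the POL6326 4 h arrays, and it read 14.65, 14.19 and 12.76 with POL6326, against 11.97, 12.03 and 12.46 with SDF-1α. miR-92a read 14.19, 14.65 and 14.65 with POL6326, against 14.65 on each SDF-1α array of that time.

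At the other times no difference in miR-223 between the agents passed. At 1 h POL6326 arrays read 15.12, 15.46 and 15.46, against 15.12 on each SDF-1α array, a log2 difference of 0.23 (95% interval -0.21 to 0.67, adjusted p = 0.6 by limma, where 3.49% of probes were called). At 2 h POL6326 arrays read 15.12, 15.46 and 15.12, against 15.12 on each SDF-1α array (0.12, 95% interval -0.32 to 0.55, adjusted p = 0.995, where 4.13% were called). Every SDF-1α array up to 4 h thus held the same value, so the groups differ by single steps at the top of the scale. At 8 h POL6326 arrays read 14.65, 14.65 and 15.12, against 14.39, 15.12 and 14.65 with SDF-1α, and the groups overlapped (0.09, 95% interval -0.35 to 0.53, adjusted p = 1, where 1.03% were called).

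Over the 4 times miR-223 averaged 14.85 ± 0.57 with POL6326 and 15.02 ± 0.24 with SDF-1α (SD, n = 12 each), and the log2 difference of -0.16 (SE 0.10, 95% interval -0.38 to 0.05) did not pass (adjusted p = 0.314 by limma, where 9.82% of probes were called in either direction). An exact permutation test that exchanged the agents within each time gave p = 0.266 (two-sided). The sign of this mean rests on 4 h: without the 4 h arrays it was 0.14 (adjusted p = 0.502). Against control the mean differed by -0.14 with POL6326 (SE 0.17, adjusted p = 0.891) and by 0.03 with SDF-1α (SE 0.17, adjusted p = 0.991). The first of these turned to 0.14 without the 4 h arrays, and the second to -0.27 without control array 1. At single times the difference from control was 0.36, 0.24 and -0.19 with POL6326 at 1, 2 and 8 h, and 0.13, 0.13, 0.13 and -0.27 with SDF-1α at 1, 2, 4 and 8 h, none past the threshold.

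miR-223 changed over time with POL6326 (moderated F-test, adjusted p = 0.00128, with 13.6% of probes called), and not past the threshold with SDF-1α (adjusted p = 0.356, 5.68% called). The difference between the agents itself differed among the times (interaction F-test, adjusted p = 0.0281, with 3.88% of probes called). That interaction ended without any 1 of the 3 SDF-1α 4 h arrays or without POL6326 4 h array 1 or 2 (adjusted p from 0.0563 to 0.0898). The 3 SDF-1α 4 h arrays tied at 15.12, so leaving out any 1 of them changed no group mean of miR-223. The change over time with POL6326 ended with the detected count as a covariate (adjusted p = 0.138). In the order of the 9 group means, POL6326 at 1 h was highest (15.35) and POL6326 at 4 h lowest (14.03). The other 7 means lay between 14.72 and 15.23, each overlapping its neighbour, and the 1 gap with no overlap was between SDF-1α at 8 h (14.72) and POL6326 at 4 h.

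**Figure D3:**
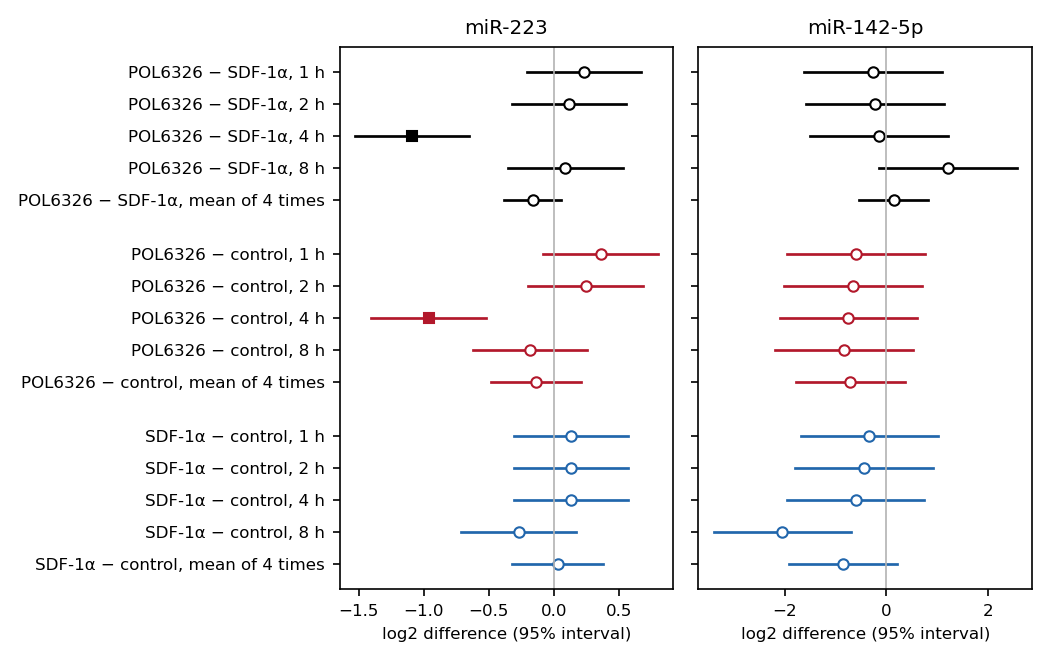
Fitted log2 differences (horizontal axes) of miR-223 and miR-142-5p for POL6326 minus SDF-1α, POL6326 minus control and SDF-1α minus control at each time and over 4 times. Lines are 95% intervals and filled squares passed an adjusted p of 0.05 by limma: of 30 differences, 2 passed, both of miR-223 with POL6326 at 4 h.

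miR-142-5p was above the floor on all 27 arrays, with signals between 5.42 and 9.41, and ranked between 80 and 302 of 774 probes. It differed between POL6326 and SDF-1α in no comparison past the threshold. Over the 4 times it averaged 8.32 ± 0.59 with POL6326 and 8.17 ± 1.12 with SDF-1α (SD, n = 12 each), a log2 difference of 0.14 (SE 0.32, 95% interval -0.53 to 0.82, adjusted p = 0.794 by limma, and p = 0.707 by the exact permutation test within times, two-sided).

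The lowest miR-142-5p value was on an SDF-1α 8 h array. At 8 h POL6326 arrays read 8.54, 8.34 and 7.69, against 8.31, 7.21 and 5.42 with SDF-1α. The groups overlapped, and 1 SDF-1α array lay far under the other 2. The log2 difference was 1.21 (SE 0.65, 95% interval -0.15 to 2.57, adjusted p = 0.509 by limma, where 1.03% of probes were called). At 1 h each agent had 1 array well under the others: POL6326 arrays read 8.88, 9.36 and 7.03, against 7.30, 9.41 and 9.38 with SDF-1α (log2 difference -0.27, SE 0.65, adjusted p = 0.897). At 2 h POL6326 arrays read 8.79, 7.98 and 8.35, against 8.64, 8.51 and 8.63 with SDF-1α (-0.22, adjusted p = 0.995). At 4 h POL6326 arrays read 8.19, 8.37 and 8.28, against 8.82, 8.72 and 7.72 with SDF-1α, and both pairs of groups overlapped (-0.14, adjusted p = 0.955).

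The 3 control arrays read 9.14, 9.25 and 8.70 for miR-142-5p, the highest mean of the 9 groups (9.03 ± 0.29, SD, n = 3). All 8 treated groups had lower means, between 6.98 and 8.69, and none of the 8 differences passed. At 1, 2, 4 and 8 h, 4.78%, 4.26%, 4.39% and 3.1% of all probes were called against control with POL6326, and 3.88%, 2.58%, 1.94% and 2.2% with SDF-1α. They share the 3 control arrays, so they are not 8 separate observations. Treated and control arrays did not overlap with POL6326 at 4 h and 8 h or with SDF-1α at 2 h and 8 h. Among the probes above the floor on all 6 arrays, the share lower with no overlap was 24.1%, 15.1%, 12.2% and 14.9% in these 4 comparisons. The widest difference was -2.05 with SDF-1α at 8 h (SE 0.65, 95% interval -3.41 to -0.69, adjusted p = 0.125 by limma). Without SDF-1α 8 h array 1, the array with a detected count of 489, it was -2.71 and passed (adjusted p = 0.0255). Over the 4 times the differences from control were -0.71 with POL6326 (SE 0.51, adjusted p = 0.619) and -0.86 with SDF-1α (SE 0.51, adjusted p = 0.523). F-tests over time, for the interaction and over all 9 groups gave adjusted p from 0.161 to 1.

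miR-142-3p, from the other arm of the same hairpin, was at the floor on 23 of 27 arrays. It was above the floor on POL6326 4 h array 1 (4.34), SDF-1α 2 h array 1 (5.36), SDF-1α 8 h array 1 (4.43) and control array 1 (4.39). The first and the last 2 of these are among the 5 arrays with the highest detected counts, and their values were no higher than the highest floor of any array (4.43). The value of 5.36 on SDF-1α 2 h array 1 stood above that array's detection limit of 5.14, while the other 2 arrays of its group were at the floor. No group had miR-142-3p above the floor on more than 1 of its 3 arrays, so no fold is given for it. As brightness depends on the probe as well as on the RNA, these values do not show that miR-142-3p was absent from the cells.

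The exact permutation test on the deposited miR-142-3p values gave p = 0.00429 (two-sided) for a mean of 4.32 with POL6326 and 4.44 with SDF-1α. The arrays' floors themselves differed between the agents, with means of 4.315 with POL6326 and 4.342 with SDF-1α on 12 arrays each (exact permutation p = 0.0123, two-sided), and the p of miR-142-3p mixes this with the 1 array at 5.36. limma's test of the same difference did not pass (adjusted p = 0.339). The log2 ratio of miR-142-3p to miR-142-5p within an array differed by -0.27 between POL6326 and SDF-1α (exact permutation p = 0.47, two-sided), and with miR-142-3p at the floor this ratio mostly restates miR-142-5p.

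As a check of the labelled cell type, 2 of the 3 haematopoietic markers, miR-223 and miR-142-5p, were above the floor on all 27 arrays. Of 21 marker probes of other cell types, 4 were also above the floor on all 27: miR-122 of liver, miR-206 of muscle, miR-205 of epithelium and miR-214 of stroma. Of the red-cell markers, miR-451 exceeded the floor on 12 of 12 arrays with POL6326, against 4 of 12 with SDF-1α and 1 of 3 in control, whereas miR-486-5p was above it on 5 of all 27 arrays and miR-144 on 1. Of the other stromal markers, miR-145 was above the floor on 26 arrays, miR-199a-5p on 5 and miR-143 on 0. The other muscle, neural and epithelial markers were above the floor on 3 to 26 arrays. Of these, epithelial miR-203 exceeded it on 11 of 12 POL6326, 3 of 12 SDF-1α and 1 of 3 control arrays. Such a split was thus not particular to miR-451. In the same order, epithelial miR-200b was above the floor on 11, 6 and 2 arrays and neural miR-137 on 12, 9 and 1. Epithelial miR-200c went the other way, with 1, 2 and 0. The summed signal of the 3 haematopoietic markers ranged from 13.91 to 15.48 with POL6326, from 14.41 to 15.15 with SDF-1α and from 14.43 to 15.48 in control on the log2 scale. These 3 markers are the members themselves. Their sum is nearly all miR-223, which alone ranged from 13.88 to 15.46 with POL6326, so it is no separate check. The sum of the 3 red-cell markers ranged from 6.10 to 8.16 with POL6326, from 5.89 to 6.26 with SDF-1α and from 5.94 to 6.16 in control, and the liver marker ranged from 4.83 to 8.55, from 7.27 to 8.34 and from 6.04 to 8.08 in the same order. In that order the stromal sum ranged from 9.68 to 10.38, from 9.23 to 9.94 and from 10.15 to 10.69. The muscle sum ranged from 8.61 to 9.87, from 7.89 to 9.07 and from 7.93 to 9.71. The epithelial sum ranged from 7.48 to 9.88, from 7.95 to 9.48 and from 8.37 to 9.04. The neural sum ranged from 6.12 to 8.94, from 5.9 to 8.32 and from 5.95 to 7.93. The part of such signals in the miR-223 differences was not tested. Fewer cells and less miRNA per cell cannot be told apart in such RNA.

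Other blood-cell miRNAs were looked at in a list of 43 further mature probes. Between POL6326 and SDF-1α over 4 times, 3 were higher, 4 lower and 36 did not pass, with a median log2 difference of 0.022 beside -0.027 over all 774 probes, of which 5.43% were called higher and 4.39% lower. The 4 lower ones were above the floor on all arrays: miR-424, which the myeloid factor PU.1 induces, differed by -1.34 on the log2 scale (SE 0.29), miR-24 differed by -0.79 (SE 0.17), and the star strands miR-181a-2* and miR-181c*, from hairpins of the miR-181 family, differed by -1.40 (SE 0.25) and -0.69 (SE 0.11). Adjusted p ranged from 0.00046 to 0.00548 by limma. The 3 higher ones were miR-146a (1.59), miR-181b (1.65) and miR-29b-2* (1.40), with adjusted p from 0.00143 to 0.0477 by limma. They were above the floor on 9, 8 and 12 of 12 POL6326 arrays, against 2, 2 and 7 of 12 for SDF-1α. With 1 common detection limit (7.42), to which all lower values were raised, these calls ended. miR-146a was at 0.18 (adjusted p = 0.249 by limma), miR-181b at 0.11 (adjusted p = 0.54) and miR-29b-2* at 0.16 (adjusted p = 0.648). The call of miR-424 ended too, at -0.21 (adjusted p = 0.163). For miR-424 and the 3 higher probes both group means lay under that limit. The setting thus removes most of each difference by itself and cannot tell whether the calls hold. Of the 14 list probes above the floor on all 27 arrays, the 4 lower ones passed. miR-155, an inflammatory miRNA, and miR-150, of mature lymphocytes, did not (-0.03 and 0.11). That filter leaves out miR-146a, miR-181b and miR-29b-2*, which were above the floor on 12, 12 and 20 of 27 arrays. The share called among all probes that pass the same filter was not counted, so 4 of 14 has no matched background. The calls of miR-181a-2* and miR-181c* held under 12 of 12 alternative settings, that of miR-146a under 10 of 11, miR-24 under 10 of 12, miR-424 under 9 of 12, miR-181b under 7 of 11 and miR-29b-2* under 6 of 12. Without 1 array, miR-29b-2* passed in 4 of 27 fits, miR-181b in 23 and the other 5 in all 27. With the detected count as a covariate those of miR-24 (-0.55, adjusted p = 0.0695), miR-424 (-0.80, adjusted p = 0.0572), miR-181b (adjusted p = 0.21) and miR-29b-2* (adjusted p = 0.278) ended.

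**Figure D4:**
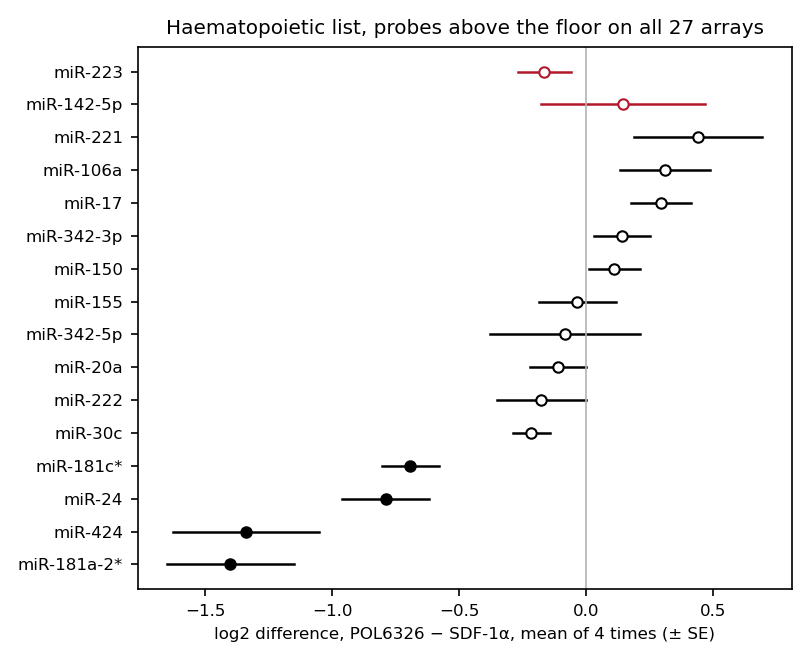
Log2 difference of POL6326 minus SDF-1α over 4 times (horizontal axis, with SE) for miR-223 and miR-142-5p (red) and the 14 other list probes above the floor on all 27 arrays. Filled points passed an adjusted p of 0.05 by limma, and these are miR-181c*, miR-24, miR-424 and miR-181a-2*, all lower with POL6326. The list probes called higher (miR-146a, miR-181b and miR-29b-2*) were at the floor on some arrays and are not shown.

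Against control over the 4 times, 1 of the 43 probes was higher and 2 lower with POL6326 (3.75% of all probes were called, 1.81% higher and 1.94% lower). With SDF-1α 0 were higher and 4 lower (2.84% of all probes, 0.904% higher and 1.94% lower). The 2 comparisons share the 3 control arrays. miR-30c, which restrains NOTCH1 in granulocyte differentiation, was lower with both: it averaged 10.05 ± 0.18 with POL6326 and 10.27 ± 0.17 with SDF-1α (SD, n = 12 each), against 11.06 ± 0.07 in control (SD, n = 3), differences of -1.01 (adjusted p = 1.43e-05 by limma) and -0.80 (adjusted p = 0.000965). With POL6326, miR-24 was also lower (-1.15, SE 0.27), and miR-17* was higher (2.11, SE 0.56) with 11 of 12 POL6326 and 1 of 3 control arrays above the floor (adjusted p = 0.0181 and 0.0417). With SDF-1α, miR-221, a brake on KIT, was lower (-1.50, SE 0.40, adjusted p = 0.0498), as were miR-17 (-0.74, SE 0.19) and miR-146b-5p (-2.34, SE 0.62, above the floor on 5 of 12 SDF-1α and 3 of 3 control arrays), with adjusted p of 0.0442 and 0.0498. The signs held in every setting run, and both miR-30c calls held under 12 of 12 settings and without any 1 of 27 arrays. Of the 12 settings, miR-221 passed in 5, miR-17 in 6, miR-146b-5p in 9, miR-17* in 8 and miR-24 in 11. With 1 common detection limit (7.42) miR-17* was at 0.042 (adjusted p = 0.511) and miR-146b-5p at -0.34 (adjusted p = 0.00889). The compared group means of both probes lay under that limit, so the setting shrinks these differences by itself. Without 1 array, miR-221 passed in 3 of 27 fits, miR-146b-5p in 6 and miR-17 in 9, and for POL6326 miR-17* passed in 15 and miR-24 in 25.

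The profile most like that of miR-223 over the 27 arrays, among 137 mature probes above the floor on all of them, was that of miR-191 (Pearson r = 0.864), followed by that of miR-409-3p (0.848, a probe marked Plus/Minus) and miR-663 (0.846). Over the 9 group means the first 3 were miR-205 (0.947), miR-615-3p (0.942) and the same miR-409-3p probe (0.942). For miR-142-5p they were miR-221 (0.606), miR-99b (0.599) and miR-155 (0.574) over 27 arrays, and miR-107 (0.801), miR-106a (0.775) and miR-221 (0.754) over 9 group means. All of these values share the same arrays and the same normalization. For miR-142-3p, at the floor on most arrays, no likeness is given.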

How the data were processed

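The deposited table holds log2 signals of 784 probes on 27 arrays (774 human miRNA probes and 10 control probes, left out). Per the labels' protocols, biotin-labelled cDNA was made from total RNA and hybridised. How signals were scanned, background-corrected and normalized is not given in the sources used here. Deposited values were used unchanged. A probe within 1e-04 of its array's most frequent value, or under it, was taken as at the floor. No 2 arrays were identical.

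A model with 1 mean per group was fitted over the 27 arrays (R 4.3.3, limma 3.58.1; prior degrees of freedom 0.9), with two-sided p-values adjusted by Benjamini-Hochberg over 774 probes within each comparison and a threshold of 0.05. Exact permutation tests exchanged the agents within each time. The fit was tested on simulated data.

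The members and lists were chosen with earlier results of these data known. Named probes were the members, the 3 mature probes most like each by Pearson correlation, list probes past the threshold, otherwise up to 4 with the smallest p. The probes brighter than miR-223, and miR-155 and miR-150, were named after their values were seen. Alternatives were other scalings and floors, a robust prior, a replicate block, fewer groups, a covariate, and leaving out times or arrays.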

Additional observations from a re-analysis of the deposited data

Results flagged for a closer look

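The difference of miR-223 between POL6326 and SDF-1α was not the same at every time (interaction F-test by limma, adjusted p = 0.0281). The log2 difference was 0.23, 0.12, -1.09 and 0.09 at 1, 2, 4 and 8 h (SE 0.21 each), so the 4 h value stands apart from the others. The POL6326 4 h arrays had 482 to 593 probes above the floor (the detected count), against 362 to 381 on the SDF-1α 4 h arrays. With that count as a covariate the 4 h call and the change over time with POL6326 (F-test, adjusted p = 0.138) ended, while the interaction stayed past the threshold. The slope of that covariate rests largely on the control and SDF-1α 8 h arrays, where the counts differed most within a group. The interaction ended, however, without any 1 SDF-1α 4 h array, or without POL6326 4 h array 1 or 2 (F-test, adjusted p from 0.0563 to 0.0898). As the SDF-1α 4 h arrays were tied, leaving out any 1 of them changed no group mean of miR-223. Groups of 3 arrays are too small for a test of single outlying arrays.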

How the results depend on the processing

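The 4 h call of miR-223 between POL6326 and SDF-1α held under 8 of 9 alternatives, and the call against control under 7 of 9. With the detected count as a covariate they were -0.66 (adjusted p = 0.0866) and -0.54 (0.148), the second ended when only those groups were fitted (-0.96, adjusted p = 0.236), and the F-test over time with POL6326 had an adjusted p of 0.138 with the covariate. The interaction held under 8 of 8 (0.0103 to 0.0433). Without any 1 array, the call against control ranged from -1.26 to -0.73, and the adjusted p of the interaction from 0.00507 to 0.0898.

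No mean over 4 times of miR-223 or miR-142-5p passed the threshold under any alternative, but signs turned. For POL6326 minus SDF-1α, miR-223 was 0.022 with the covariate, 0.14 without the 4 h arrays and 0.089 without the 5 arrays of highest detected count and the SDF-1α 4 h arrays, an alternative chosen after seeing the data. miR-142-5p was -0.017 with 1 common detection limit (7.42) and -0.12 with the covariate. For POL6326 minus control, miR-223 was 0.14 without the 4 h arrays. For SDF-1α minus control it was -0.10 with the covariate, -0.0052 without the 1 h arrays, -0.0052 without the 4 h arrays and -0.25 in the alternative chosen after seeing the data. Leaving out 1 array gave -0.44 to 0.10 (miR-223, POL6326 minus control), -0.27 to 0.26 (miR-223, SDF-1α minus control) and -0.050 to 0.32 (miR-142-5p, POL6326 minus SDF-1α). miR-142-3p was above the common detection limit on 0 arrays.

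At single times 22 of 792 values turned sign, and 0 of these passed the threshold. For miR-223 at 8 h, POL6326 minus SDF-1α, it was -0.25 with median centring, -0.15 with quantile normalization and -0.024 centred on the probes above the floor on all arrays. With the last 2, miR-142-5p at 4 h was 0.021 and 0.063. With the covariate, SDF-1α minus control was -0.29 at 1 h and -0.0065 at 2 h for miR-223 and 0.25 at 1 h for miR-142-5p. Leaving out 1 array gave, for miR-223, -0.17 to 0.36 (SDF-1α minus control at 1, 2 and 4 h), -0.058 to 0.48 and -0.49 to 0.051 (POL6326 minus control at 2 and 8 h) and -0.079 to 0.29 (POL6326 minus SDF-1α at 8 h). For miR-142-5p it gave -0.97 to 0.43 and -0.49 to 0.062 (POL6326 minus SDF-1α at 1 and 4 h), -1.07 to 0.093 (POL6326 minus control at 1 h) and -0.69 to 0.36 (SDF-1α minus control at 1 h). The cause was not tested.

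The count of called probes over 4 times for POL6326 minus SDF-1α (76) was 310 with median centring, which shifted the median of all probes by -0.142, 39 with the covariate and 44 without the 4 h arrays. An array's median is the floor itself unless most of its 774 probes are above the floor. Most were above it on all POL6326 4 h (482 to 593) and 8 h arrays (393 to 422). Of the SDF-1α arrays this held only for 8 h array 1 (489). Median centring thus lowers probes at the floor on those arrays relative to the others, and its part in the 310 calls was not tested. For POL6326 minus control (29) the count of called probes was 71 with the covariate, 45 without the 4 h arrays and 22 to 44 without 1 array. For SDF-1α minus control (22) it was 14 with median centring, 6 with only the groups compared, 11 without the 1 h arrays and 3 to 38 without 1 array. A replicate block gave 79, 35 and 25 and changed no call of the members (miR-223 at 4 h against SDF-1α, adjusted p = 0.00161), while of the list calls that of miR-29b-2* ended (0.0608). Whether the replicate numbers pair the arrays is not settled. Of 108 same-numbered pairs, 27 had residual correlations over 0.1, with a mean of 0.0588 against -0.0279 for pairs of different number. Of the 27 arrays, 19 correlated best with their own number. The number of arrays and the floor limit what can be seen.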
